A study of Mus musculus with 21 samples.

Results

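The sarcomeric myosin heavy chain genes were taken from the table of raw counts by their symbols, Myh1, Myh2, Myh3, Myh4, Myh7, Myh7b and Myh8, which gave 7 of the 40853 genes in the table. All 7 passed edgeR's filter on low counts, as did 16129 genes in all. RNA came from the medial belly of the gastrocnemius, a calf muscle, of 21 female C57BL/6NJ mice, and each library held the poly(A) RNA of 1 mouse. Mice entered the study at 10 weeks of age and fell into 3 groups of 7. The Inactive group was housed without training for 6 weeks. The Active group ran on a treadmill on 5 days a week for 6 weeks, in sessions that reached 40 min and 70% of maximal speed. The Activity Reduction group trained in the same way for 4 weeks and then had 2 weeks without training. Mice of every group also ran graded maximal tests, the last of them 48 to 72 h before the muscle was collected, so no group was without treadmill running. All mice had gone without food for 5 to 6 h at collection.

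Myosin heavy chains are the motor proteins of the thick filament, and the isoform that a fibre makes sets much of its shortening speed. In adult mouse limb muscle, Myh7 encodes the slow chain of type I fibres, Myh2 the chain of type IIA fibres, Myh1 that of type IIX fibres and Myh4 that of type IIB fibres, the fastest. Myh3 and Myh8 encode the embryonic and the perinatal chain, which are made in developing and regenerating fibres, and Myh7b encodes an older relative of the slow chain whose gene also hosts the microRNA Mir499. Fast fibres make up most of the mouse gastrocnemius, and the fibre counts that the study cites give type IIB a wide range that overlaps that of type IIX. Endurance training is known for shifts among the fast types in the direction from IIB towards IIX and IIA. The comparisons ask whether the mix of these transcripts differed between trained, untrained and formerly trained muscle.

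Of the 7 genes, 5 lie side by side on the plus strand of chromosome 11 in GRCm39, the build that the counts were made on. In order they are Myh3 at chr11:66969126-66993117, Myh2 at chr11:67061838-67088989, Myh1 at chr11:67089132-67116631, Myh4 at chr11:67128336-67151274 and Myh8 at chr11:67167746-67199462 (GENCODE M39). Myh7 lies on the minus strand at chr14:55208141-55232084 and Myh7b on the plus strand at chr2:155453096-155476234. Their coding sequences are long and much alike, and the lengths of the canonical coding parts range from 5805 to 5826 bases. Within the cluster, Myh1 was identical to Myh2 at 91% and to Myh4 at 90.1% of aligned coding positions, and Myh4 to Myh8 at 87.7%. Myh7 and Myh7b were 72.2% identical to each other. The stretch shown here opens the longest coding run that Myh4 and Myh8 share without a difference, which is 164 bases, and it is printed because reads that fall wholly inside it cannot be told apart between the most abundant and one of the scarcest of these genes. Each line gives 80 bases, 5′ to 3′ on the coding strand, that align with coding positions 2953 to 3032 of Myh4, and capitals mark bases that differ from Myh4.
Myh4: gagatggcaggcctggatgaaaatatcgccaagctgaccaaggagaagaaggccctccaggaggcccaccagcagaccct
Myh8: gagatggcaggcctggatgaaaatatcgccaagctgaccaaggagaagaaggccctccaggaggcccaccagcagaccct
Myh1: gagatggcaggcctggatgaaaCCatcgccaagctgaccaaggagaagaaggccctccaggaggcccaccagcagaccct
Myh2: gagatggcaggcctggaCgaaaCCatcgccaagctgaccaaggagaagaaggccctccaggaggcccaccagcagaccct
Myh3: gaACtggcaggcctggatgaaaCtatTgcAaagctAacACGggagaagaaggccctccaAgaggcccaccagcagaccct
Myh7: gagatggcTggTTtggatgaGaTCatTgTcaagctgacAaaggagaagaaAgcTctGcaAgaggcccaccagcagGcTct
Myh7b: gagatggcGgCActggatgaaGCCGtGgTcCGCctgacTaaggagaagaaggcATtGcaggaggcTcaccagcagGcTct
Myh8 differed from Myh4 at 0 of these 80 bases, Myh1 at 2, Myh2 at 3, Myh3 at 10, Myh7 at 15 and Myh7b at 19. Over the whole canonical transcripts, 5.17% of the 100-base windows of Myh8 and 3.89% of those of Myh4 also occurred in another of the 7 genes, against 0% of those of Myh7, Myh7b and Myh3. The read length and the treatment of reads with several matches are not given in the sources used here. As far as windows shared among the 7 go, counts of Myh1, Myh2, Myh4 and Myh8 are therefore the less certain. Windows shared with genes outside the 7, such as Myh6 beside Myh7, were not searched. Exons that lie opposite antisense RNAs are given further on.

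The promoters of the cluster genes are shown because 4 of the genes, Myh1, Myh2, Myh4 and Myh8, share a promoter sequence. Correlations across mice are given further on for Myh4 with Myh8 and for Myh1 with Myh2. The part of promoter or coding likeness in them was not tested. The longest run common to the 250 bases before the RefSeq starts of Myh1, Myh2, Myh4 and Myh8 was TTCTAATTATATCC, a run that was picked by comparing these promoters. Each line gives 30 bases of the plus strand around it, with the run in capitals, from RefSeq sequences that were placed on GRCm39 by exact match.
Myh2: aaaaatatTTCTAATTATATCCaaccattc
Myh1: gggaatatTTCTAATTATATCCaaacatcc
Myh4: agaaatatTTCTAATTATATCCattcacag
Myh8: atgaatacTTCTAATTATATCCgaagatgc
These windows lie at chr11:67061720-67061749, chr11:67090760-67090789, chr11:67128472-67128501 and chr11:67167888-67167917. The run starts 125 bases before the RefSeq start of Myh2, 160 before that of Myh1, 158 before that of Myh4 and 54 before that of Myh8. Searched on both strands of 32851 RefSeq promoter stretches of the same length, these letters occurred in 4, or 0.0122%, and those were the promoters of the 4 genes shown. The run was not among the letters of the windows before Myh3, Myh7 and Myh7b.

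Library totals ran from 38482455 to 59785132 counts, with all Active totals under the lowest Inactive total. The 8 skeletal muscle markers summed to between 74816 and 82486 CPM (counts scaled to a common library total) in every library, with none at 0. Transcripts of 24 liver genes divided the libraries into 8 with between 794 and 2395 CPM in sum and 13 with between 167 and 364 CPM. Active mice 1 to 5, Activity Reduction mice 1 and 2 and Inactive mouse 1 made up the 8. These are the first 8 libraries in the numbering of the sample labels. The division therefore cannot be told apart from that order, and it was uneven over the groups. Values within the 13 are given where they bear on a result. Spindle, endothelial, Schwann cell, tendon, fat, blood, macrophage and smooth muscle markers were present at low levels in all groups. In whole muscle, fewer fibres of a type and less RNA per fibre cannot be told apart. The p-values for groups set a difference against the spread between libraries, 1 per mouse. That spread can also hold the liver division and the library order.

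The 7 genes together took 8.88% ± 0.738 (SD, n = 21) of all counts, between 7.58% and 10.3% of a library. Most of this was Myh4, whose share of the summed heavy chain counts was between 88.5% and 93.1% in the 21 libraries. Myh1 held between 3.03% and 6.65% of the sum, Myh2 between 2.65% and 4.73% and Myh7 between 0.122% and 0.775%. The remaining genes held much less, with at most 0.0405% for Myh8, 0.0280% for Myh7b and 0.0130% for Myh3. Even so, the lowest count in any library was 282 for Myh3 and 234 for Myh7b.

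Levels were compared between genes per kilobase of canonical mRNA. On this scale the mean over the 21 libraries was 13546 CPM per kb for Myh4, 572 for Myh1, 488 for Myh2, 75.3 for Myh7, 5.06 for Myh8, 2.40 for Myh7b and 1.39 for Myh3. The ranges of Myh1 and Myh2 overlapped, and Myh1 was the higher of the pair in 17 of 21 libraries. The ranges of Myh7b and Myh3 overlapped too, with Myh7b the higher in 19 of 21. Every other step in this order separated the genes in 21 of 21 libraries. After division by length, Myh4 held 92.2% ± 1.07 (SD, n = 21) of the sum, so the order did not rest on length.

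**Figure D1:**
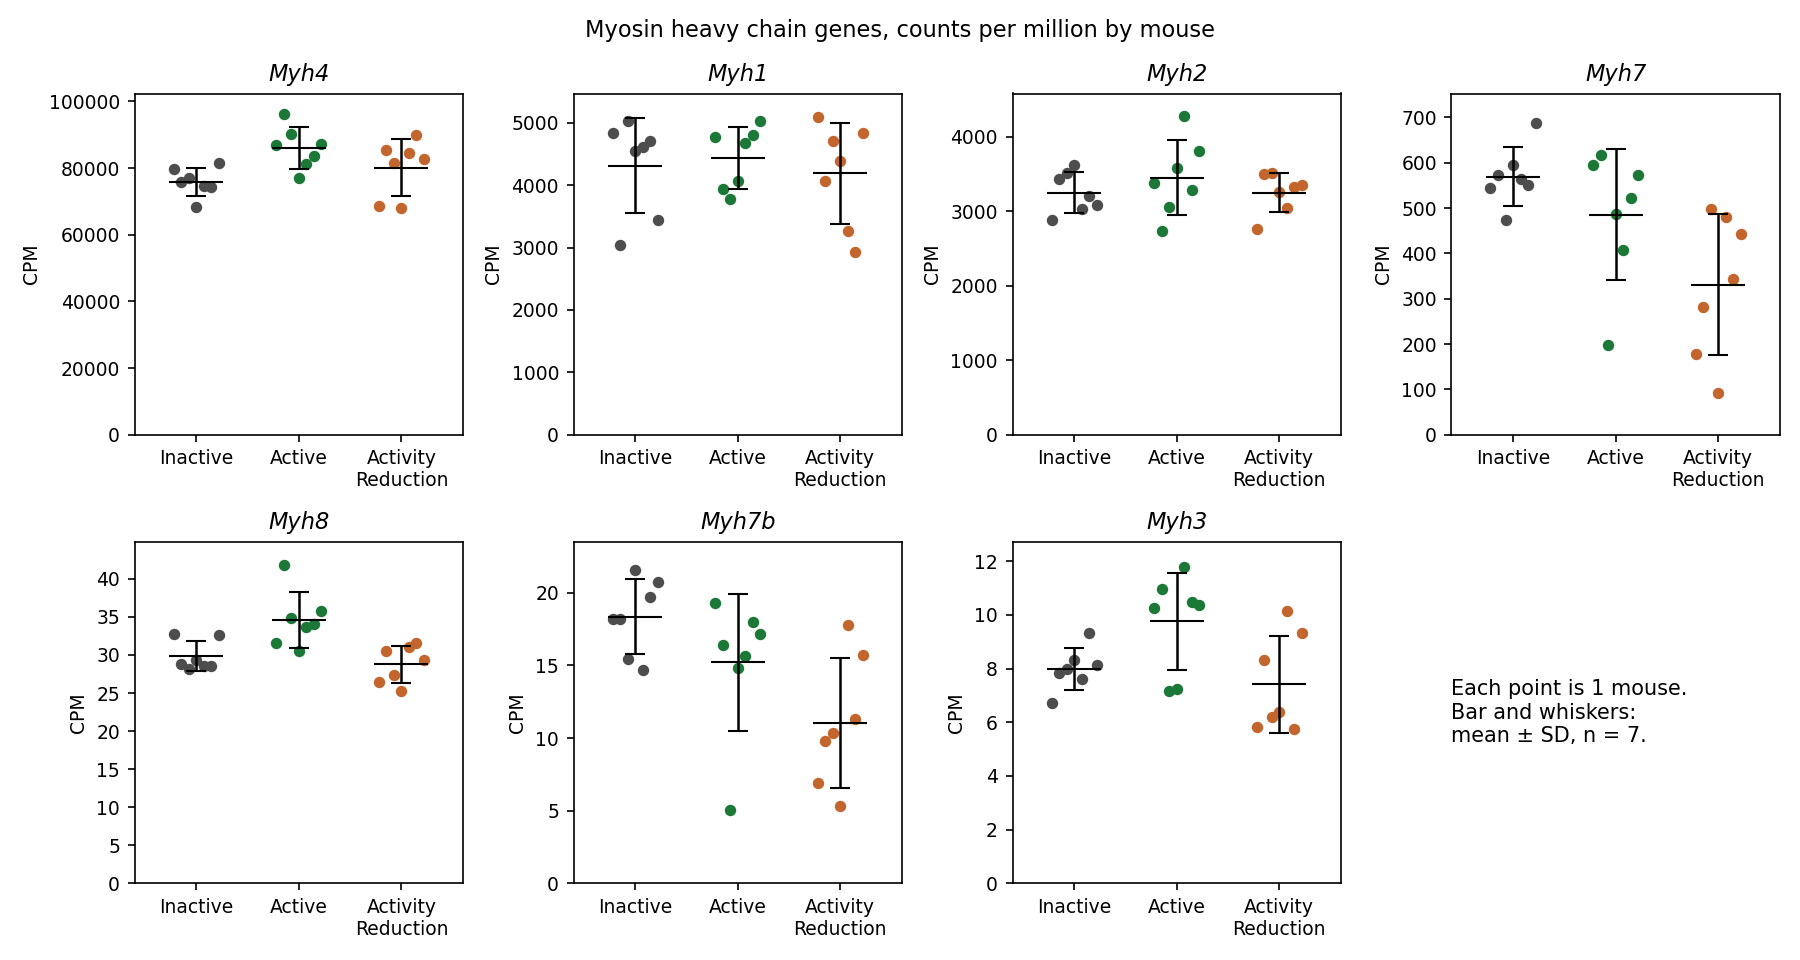
CPM (y axis, linear from 0, a separate scale for each gene) of the 7 heavy chain genes in each of 21 mice by training group (x axis); points are mice, and bars with whiskers are the mean ± SD of 7. The Inactive mice lie close together for Myh7 (473 to 687 CPM), while the Activity Reduction mice spread from 92.3 to 497 CPM.

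The genes differed in how evenly the mice expressed them. The highest library exceeded the lowest 1.41 times for Myh4, 1.56 times for Myh2, 1.66 times for Myh8 and 1.74 times for Myh1, in CPM. For Myh3 this ratio was 2.05, for Myh7b it was 4.29 and for Myh7 it was 7.44. The coefficient of variation of Myh7 was 11.3% over the Inactive mice, 29.9% over the Active mice and 47.1% over the Activity Reduction mice. That of Myh7b was 31.1% over the Active and 40.5% over the Activity Reduction mice, although its highest over lowest ratio was larger in the Active mice, at 3.84 against 3.33.

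The Active group was compared with the Inactive group to see whether 6 weeks of running altered the mix. Of the 7 genes, 0 passed an adjusted p-value of 0.05 and a log2 fold change of 0.25 in edgeR's quasi-likelihood test. Of all genes tested there, 0% passed. In DESeq2 0 of the 7 passed too, where up to 77 of all genes did, depending on the groups fitted. At an unadjusted p-value under 0.05, Myh3, Myh4 and Myh8 were higher and 0 genes were lower, where 6.18% of all genes tested were higher and 4.69% were lower. The median log2 fold change of the 7 genes was 0.09, beside 0.01 for all genes tested.

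Myh4, the type IIB chain, was counted at 68151, 75684 and 81430 CPM (lowest, median and highest) in the Inactive mice and at 76873, 86793 and 96075 CPM in the Active mice. The groups overlapped, but all 7 Active mice lay above the median of the Inactive mice and 5 lay above the highest of them. The log2 fold change was 0.19 ± 0.07 (SE), with a 95% interval from 0.04 to 0.34, and the adjusted p-value of edgeR's test was 0.355. With the liver division as a covariate it was 0.21, with an interval from 0.04 to 0.37. In the same libraries the 7 genes together took 9.44% ± 0.580 of the counts in the Active group and 8.41% ± 0.399 in the Inactive group (SD, n = 7 each). The share of Myh4 within that sum differed less, with 91.0% ± 1.27 against 90.2% ± 1.13 (SD, n = 7; p = 0.238, two-sided exact permutation test).

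Myh8, the perinatal chain, followed the same order at a far lower level. It was counted at 28.2, 28.8 and 32.7 CPM in the Inactive mice and at 30.5, 34.0 and 41.9 CPM in the Active mice. Again all 7 Active mice lay above the Inactive median and 5 above the highest Inactive mouse. The log2 fold change was 0.22 ± 0.07 (SE), and the adjusted p-value of edgeR's test was 0.291. A fit that included the liver division gave the same log2 fold change of 0.22. The part of reads shared with Myh4 in the counts of Myh8 was not tested. Myh3, the embryonic chain, was counted at 6.73, 7.97 and 9.33 CPM in the Inactive mice and at 7.16, 10.4 and 11.8 CPM in the Active mice. Its Active mice fell into 5 above every Inactive mouse and 2 below the Inactive median, with a log2 fold change of 0.30 ± 0.14 (SE) and an adjusted p-value of 0.445 (edgeR). With the covariate it was 0.40, with an interval from 0.08 to 0.71. The Inactive group also had lower totals of macrophage markers (20.9 ± 4.60 CPM against 26.4 ± 4.34 CPM, SD, n = 7), endothelial markers (203 ± 14.3 CPM against 222 ± 20.2 CPM) and muscle spindle markers (4.28 ± 0.624 CPM against 5.02 ± 0.517 CPM), and the part of these in the differences was not tested.

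Myh1 and Myh2, the chains of the intermediate fast fibres, did not separate the trained from the untrained mice. Myh1 was counted at 3035, 4610 and 5026 CPM in the Inactive mice and at 3786, 4680 and 5025 CPM in the Active mice. Its log2 fold change was 0.05, with a 95% interval from -0.20 to 0.29. Myh2 was counted at 2882, 3208 and 3615 CPM in the Inactive mice and at 2739, 3377 and 4284 CPM in the Active mice, and its log2 fold change was 0.09, with an interval from -0.07 to 0.25. These intervals leave room for changes of about the size seen for Myh4. The share of Myh1 in the sum was 5.15% ± 0.949 in the Inactive and 4.72% ± 0.613 in the Active mice (SD, n = 7; p = 0.338, two-sided exact permutation test), and that of Myh2 was 3.88% ± 0.476 and 3.68% ± 0.686 (p = 0.532, same exact test).

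For Myh7, the type I chain, the share differed and the level did not pass the test. Its CPM was 473, 563 and 687 in the Inactive mice and 199, 523 and 617 in the Active mice, with a log2 fold change of -0.22 and an interval from -0.79 to 0.35. Its share of the heavy chain counts was 0.679% ± 0.0803 in the Inactive and 0.515% ± 0.147 in the Active mice (SD, n = 7), lower by 0.164 percentage points (p = 0.00816, two-sided exact permutation test). In share, all 7 Active mice lay below the Inactive median and 2 lay below every Inactive mouse. The share falls when Myh4 is higher as well as when Myh7 is lower. Here the log2 fold change of Myh4 was 0.19 and that of Myh7 -0.22, and the part of each in the share was not tested. Without replicate 3 of the Active group, which had the lowest Myh7 of that group, the difference in share was 0.113 percentage points and its exact p-value stayed under 0.05. Only 2 Active and 6 Inactive mice were among the 13 libraries with fewer liver transcripts, and their mean shares differed by 0.110 percentage points. With the liver division as a covariate the log2 fold change of Myh7 was -0.00, with an interval from -0.61 to 0.61 (edgeR). The share of Myh7b was also lower, at 0.0162% ± 0.00506 in the Active and 0.0219% ± 0.00360 in the Inactive mice (p = 0.0111, same exact test). In all, 21 comparisons of shares were made over the 7 genes and 3 pairs of groups, their p-values are not adjusted, and a test of 7 against 7 mice allows no p-value under 0.000583.

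**Figure D2:**
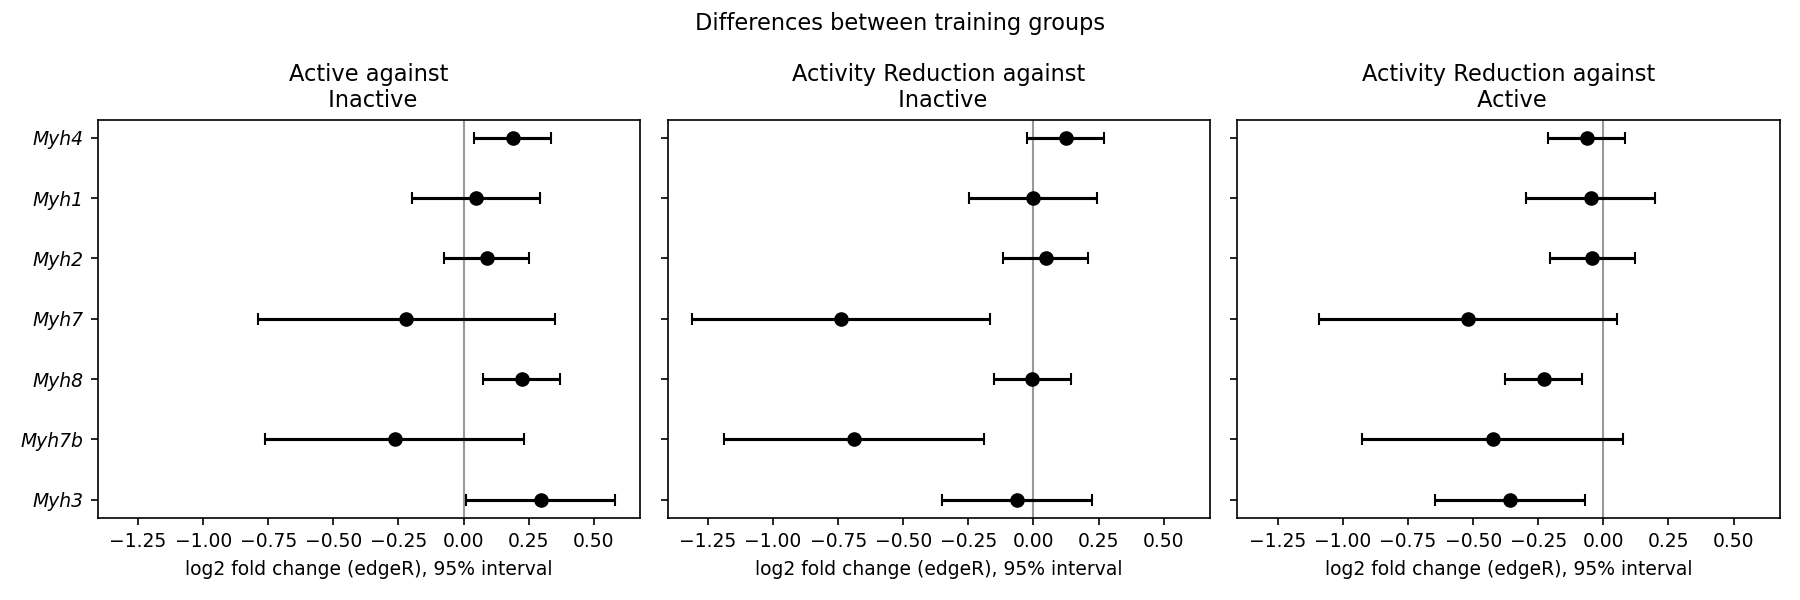
log2 fold change (x axis) of the 7 heavy chain genes (y axis) in each of 3 comparisons, as points with 95% intervals from edgeR's model of all 21 libraries; the grey line marks no difference. The intervals of Myh7 and Myh7b are the widest, and in Activity Reduction against Inactive they lie below 0, from -1.31 to -0.17 and from -1.19 to -0.19.

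The Activity Reduction group was compared with the Inactive group, which shares its control mice with the comparison above, to see what was different 2 weeks after training had stopped. The slow genes were the ones that stood lower. Of the 7 genes, 0 passed the thresholds in edgeR and 0 in DESeq2. Of all genes tested, 0.0124% passed in edgeR, and up to 43 genes passed in DESeq2. At an unadjusted p-value under 0.05, Myh7 and Myh7b were lower and 0 genes were higher, where 3.54% of all genes tested were lower and 4.19% were higher. The median log2 fold change of the 7 genes was -0.00, beside 0.01 for all genes tested.

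Myh7 was counted at 92.3, 344 and 497 CPM in the Activity Reduction mice, against 473, 563 and 687 CPM in the Inactive mice. The groups overlapped by few mice, since 5 of 7 formerly trained mice lay below every Inactive mouse and all 7 lay below the Inactive median. The log2 fold change was -0.74 ± 0.28 (SE), with an interval from -1.31 to -0.17, and the adjusted p-value of edgeR's test was 0.506. As a share of the heavy chain counts, Myh7 made up 0.367% ± 0.161 in the Activity Reduction and 0.679% ± 0.0803 in the Inactive mice (SD, n = 7). This difference of 0.311 percentage points had p = 0.00117 in the two-sided exact permutation test, and 6 of 7 mice lay below every Inactive mouse. Within the 13 libraries with fewer liver transcripts, 5 Activity Reduction and 6 Inactive mice had shares of 0.408% and 0.689% (p = 0.00866, same exact test). Whichever single mouse was left out, the difference stayed between 0.270 and 0.342 percentage points.

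Myh7b, the relative of the slow chain, also stood lower, at far smaller counts. It was counted at 5.34, 10.4 and 17.8 CPM in the Activity Reduction mice and at 14.7, 18.2 and 21.6 CPM in the Inactive mice. Here too 5 of 7 mice lay below every Inactive mouse and all 7 below their median. The log2 fold change was -0.69 ± 0.24 (SE), with an interval from -1.19 to -0.19 and an adjusted p-value of 0.476 (edgeR). Its share was 0.0124% ± 0.00446 against 0.0219% ± 0.00360 (SD, n = 7; p = 0.00233, two-sided exact permutation test). No stretch of 50 bases or more is identical between the transcripts of Myh7 and Myh7b, as the aligned lines above illustrate. A small part of the annotated exons of Myh7b, 1.57%, lies opposite exons of Trpc4ap and 1.27% opposite exons of Gss, and strand use in counting is not given in the sources used here.

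The fast chains were less different in this comparison. Myh4 was counted at 68045, 82599 and 90042 CPM in the Activity Reduction mice, where 4 of 7 lay above every Inactive mouse and 1 below every one of them. Its log2 fold change was 0.12, with an interval from -0.02 to 0.27, and its share was 91.0% ± 1.40 (SD, n = 7; p = 0.266 against the Inactive mice, two-sided exact permutation test). Within the 13 libraries alone its log2 fold change was 0.15, with an unadjusted p-value of 0.0202 and an adjusted one of 0.522 (edgeR, added after the data were seen). Myh1 was counted at 2934, 4385 and 5101 CPM and Myh2 at 2761, 3327 and 3509 CPM in the Activity Reduction mice, with log2 fold changes of -0.00 (interval from -0.25 to 0.24) and 0.05 (from -0.12 to 0.21). Myh3, at 5.75, 6.38 and 10.1 CPM, had a log2 fold change of -0.06, with an interval from -0.35 to 0.22.

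Myh8 gave a small difference in share without one in level. It was counted at 25.3, 29.4 and 31.5 CPM in the Activity Reduction mice, with a log2 fold change of -0.00 and an interval from -0.15 to 0.14 against the Inactive mice. Its share was 0.0328% ± 0.00135 against 0.0355% ± 0.00188 (SD, n = 7; p = 0.00991, two-sided exact permutation test). All 7 Activity Reduction mice lay below the Inactive median in share. This share falls when Myh4 is higher as well as when Myh8 is lower. Here the log2 fold change of Myh4 was 0.12, and the part of each in the share was not tested. Measured against Myh4 alone, the log2 ratio of Myh8 was -11.44 ± 0.06 in the Activity Reduction and -11.31 ± 0.08 in the Inactive mice (SD, n = 7).

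Formerly trained mice were also set against mice that had kept training, which asks what the 2 weeks without training were accompanied by. The Activity Reduction mice are those of the comparison before, and the 7 Active mice are those compared with the Inactive group, so a high Active mean enters both of those comparisons with opposite sign. Of the 7 genes, 0 passed the thresholds in edgeR, where 0% of all genes tested passed. In DESeq2 0 of the 7 passed, where up to 139 of all genes did. At an unadjusted p-value under 0.05, the developmental chains Myh3 and Myh8 were lower and 0 genes were higher, where 6.44% of all genes tested were lower and 6.89% were higher. The median log2 fold change of the 7 genes was -0.23, beside -0.00 for all genes tested.

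Myh8 had a log2 fold change of -0.23 ± 0.07 (SE) and an adjusted p-value of 0.175 (edgeR). In CPM, 4 of 7 Activity Reduction mice lay below every Active mouse and all 7 lay below the Active median of 34.0. Its share was 0.0328% ± 0.00135 against 0.0366% ± 0.00222 (SD, n = 7; p = 0.00233, two-sided exact permutation test). Myh3 had a log2 fold change of -0.36 ± 0.14 (SE) and an adjusted p-value of 0.268 (edgeR), with 4 of 7 mice below every Active mouse. Its share did not pass (0.00844% ± 0.00181 against 0.0103% ± 0.00186, SD, n = 7, p = 0.0781, same exact test). Macrophage markers summed to 19.4 ± 4.74 CPM in the Activity Reduction mice and 26.4 ± 4.34 CPM in the Active mice, and spindle markers to 3.83 ± 0.663 and 5.02 ± 0.517 CPM (SD, n = 7). Spindle fibres are among the few adult fibres known to keep developmental heavy chains, and the part of either cell type in the difference was not tested. The part of reads shared with Myh4 in the counts of Myh8 was not tested either.

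Myh7 and Myh7b did not pass between these groups at an unadjusted p-value of 0.05. The log2 fold change of Myh7 was -0.52, with an interval from -1.09 to 0.05, and that of Myh7b was -0.43, with an interval from -0.93 to 0.08. The share of Myh7 was 0.367% ± 0.161 against 0.515% ± 0.147 (SD, n = 7; p = 0.101, two-sided exact permutation test). One mouse weighed on this result: without replicate 3 of the Active group, the share of Myh7 was lower by 0.199 percentage points (p = 0.0128, same exact test). With the liver division as a covariate the log2 fold changes were -0.71 for Myh7 and -0.58 for Myh7b, with unadjusted p-values of 0.0215 and 0.0286 and adjusted ones of 0.359 and 0.397 (edgeR). Myh4, Myh1 and Myh2 had log2 fold changes of -0.06, -0.05 and -0.04, with intervals from -0.21 to 0.08, from -0.30 to 0.20 and from -0.21 to 0.12.

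The other genes of the slow fibre program were read beside Myh7, with the list chosen when earlier results of these data were known. Of 15 slow fibre genes, 6 were lower and 2 higher in the Activity Reduction than in the Inactive group at an unadjusted p-value under 0.05, and 0 passed the thresholds (edgeR, where 3.54% of all genes tested were lower and 4.19% higher). Their median log2 fold change was -0.27, and 12 of 15 were negative. Atp2a2, the slow calcium pump SERCA2, had a log2 fold change of -0.70 ± 0.21 (SE; 378 against 633 CPM on average, adjusted p-value of 0.368), Tpm3, the slow tropomyosin, one of -0.64 ± 0.24 (181 against 292 CPM, adjusted p-value of 0.520), and Casq2, a calsequestrin, one of -0.27 ± 0.11 (33.6 against 41.8 CPM, adjusted p-value of 0.535, all edgeR). The 2 higher members were Csrp3, a stretch-linked Z-disc protein, at 0.52 and Ankrd2, a stretch-linked ankyrin repeat protein, at 0.34. In Active against Inactive, 0 of 15 were lower and 0 higher, with a median of -0.05, and in Activity Reduction against Active 2 were lower and 0 higher, with a median of -0.21. A fit that included the liver division, added to these counts after the data were seen, gave 9 lower and 0 higher in Activity Reduction against Active, with a median of -0.35, where 5.18% of all genes tested were lower and 5.54% higher. It gave 5 lower and 2 higher in Activity Reduction against Inactive (3.71% and 4.54% of all genes), and 0 lower and 1 higher in Active against Inactive (4.27% and 4.24%).

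**Figure D3:**
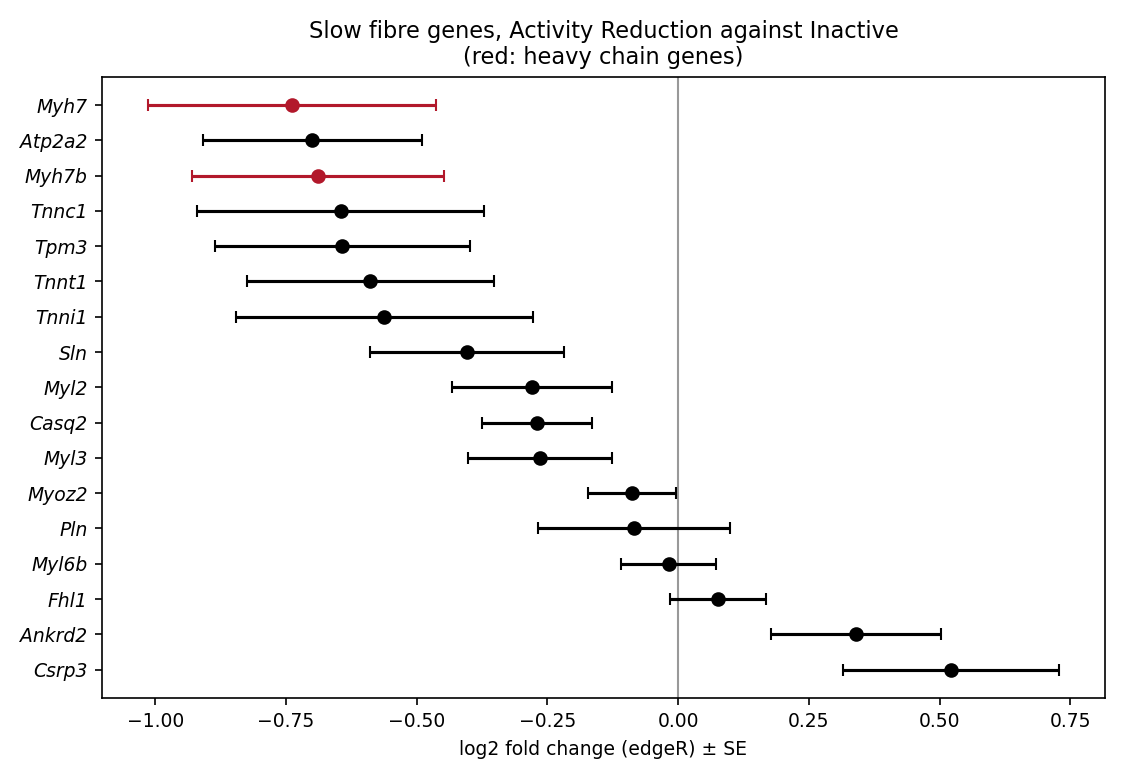
log2 fold change ± SE (x axis, edgeR) of 15 slow fibre genes in black and of Myh7 and Myh7b in red (y axis, ordered by value), Activity Reduction against Inactive; the grey line marks no difference. Myh7 at -0.74 is the lowest value and Csrp3 at 0.52 the highest.

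The 15 slow genes, which do not include Myh7, summed to 2694 to 3329 CPM in the Inactive mice, 1937 to 3367 CPM in the Active mice and 1632 to 2916 CPM in the Activity Reduction mice. Single slow genes also spread widely over the Activity Reduction mice, with Tpm3 at 181 ± 77.6 CPM, Tnnc1 at 69.3 ± 33.7 CPM and Tnni1, the slow troponin I, at 71.0 ± 36.7 CPM (SD, n = 7). The log2 ratio of Myh7 to the sum of the 15 genes was -2.40 ± 0.11 in the Inactive, -2.63 ± 0.32 in the Active and -3.04 ± 0.64 in the Activity Reduction mice (SD, n = 7). The 3 lowest levels of Myh7 were those of replicates 4 and 1 of the Activity Reduction group, at 92.3 and 177 CPM, and of replicate 3 of the Active group, at 199 CPM. Their sums of slow genes were 1632, 2284 and 1937 CPM, and of all other mice only replicate 2 of the Activity Reduction group, at 2225 CPM, had a sum under 2284 CPM. Liver transcripts summed to 347, 1674 and 1759 CPM in these 3 mice, in the order named, so 2 of them were among the 8 libraries with more, and the part of liver transcripts in the low values was not tested.

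Among 15 fast fibre genes, 5 were higher and 0 lower in the Activity Reduction than in the Inactive group at an unadjusted p-value under 0.05, where 4.19% of all genes tested were higher and 3.54% lower, and 0 passed the thresholds (edgeR). Their median log2 fold change was 0.10. The smallest p-values were those of Mylpf, the fast regulatory light chain, at 0.40, Eno3, the muscle enolase, at 0.12 and Myoz1, a fast Z-disc protein, at 0.10, with adjusted p-values of 0.450, 0.613 and 0.637 (edgeR). Mylpf was counted at only 2.95 and 2.31 CPM on average, beside 6773 and 6367 CPM for the fast light chain gene Myl1. Its counts thus stand apart from those of its partners. Of the annotated exons of Mylpf, 24.6% lie opposite exons of Septin1, and the cause of its low counts was not tested. In Active against Inactive 1 fast gene was higher and 0 lower, and in Activity Reduction against Active 3 were higher and 0 lower, with medians of 0.04 and 0.07. Over all genes tested 6.18% were higher and 4.69% lower in the first of these and 6.89% and 6.44% in the second.

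Levels were then compared across mice. Over the 21 pairs of genes, Pearson's r of log2 CPM had an adjusted permutation p-value under 0.05 (Benjamini-Hochberg over the pairs, 100000 permutations) for Myh7 with Myh7b, Myh4 with Myh8, and Myh3 with both Myh7b and Myh8. Myh7 and Myh7b gave r = 0.92 and Spearman's rho = 0.80 over 21 mice (permutation p = 1e-05, the smallest 100000 permutations can give, and 3e-05, adjusted 0.000105 and 0.00063). Without the 2 mice farthest from the Myh7 median r was 0.89, and it was 0.90 within the 13 libraries and 0.95 within the 8. After the group means were taken out it was 0.88, so the pair varied together within groups.

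Myh4 and Myh8 gave r = 0.81 and rho = 0.76 over 21 mice (permutation p = 1e-05, again the smallest possible, and 0.00014, adjusted 0.000105 and 0.00147). Without the 2 farthest mice r was 0.78, and it was 0.73 within the 13 libraries, 0.89 within the 8 and 0.85 after the group means were taken out. Of 16128 other genes, Myh4 was the one most like Myh8, and Myh8 the one most like Myh4. The count of Myh4 was far larger, with a log2 ratio of Myh8 to Myh4 of -11.34 ± 0.10 (SD, n = 21). The coding sequences of the 2 genes were 87.7% identical, and the part of shared reads in this relation was not tested. Myh3 gave r = 0.57 with Myh7b and with Myh8 (permutation p = 0.00579 and 0.00541, both adjusted 0.0304), with rho of 0.54 and 0.53 (p = 0.0125 and 0.0133, both adjusted 0.0698). Without the 2 farthest mice r was 0.52 and 0.50, and after the group means were taken out it was 0.68 with Myh7b and 0.38 with Myh8.

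Myh1 and Myh2, which are neighbours in the cluster, did not pass. Their r was 0.09 and rho 0.10 over 21 mice (permutation p = 0.684 and 0.652, adjusted 0.883 and 0.864). Myh1 and Myh4 gave r = -0.28 and rho = -0.16 (permutation p = 0.217 and 0.477, adjusted 0.507 and 0.864). Myh4 and Myh7, the ends of the fast to slow order, gave r = 0.24 and rho = 0.05 (permutation p = 0.305 and 0.830, adjusted 0.582 and 0.864). After the group means were taken out r was 0.07 for Myh1 with Myh2, -0.39 for Myh1 with Myh4 and 0.52 for Myh4 with Myh7, and these 3 values were not tested.

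**Figure D4:**
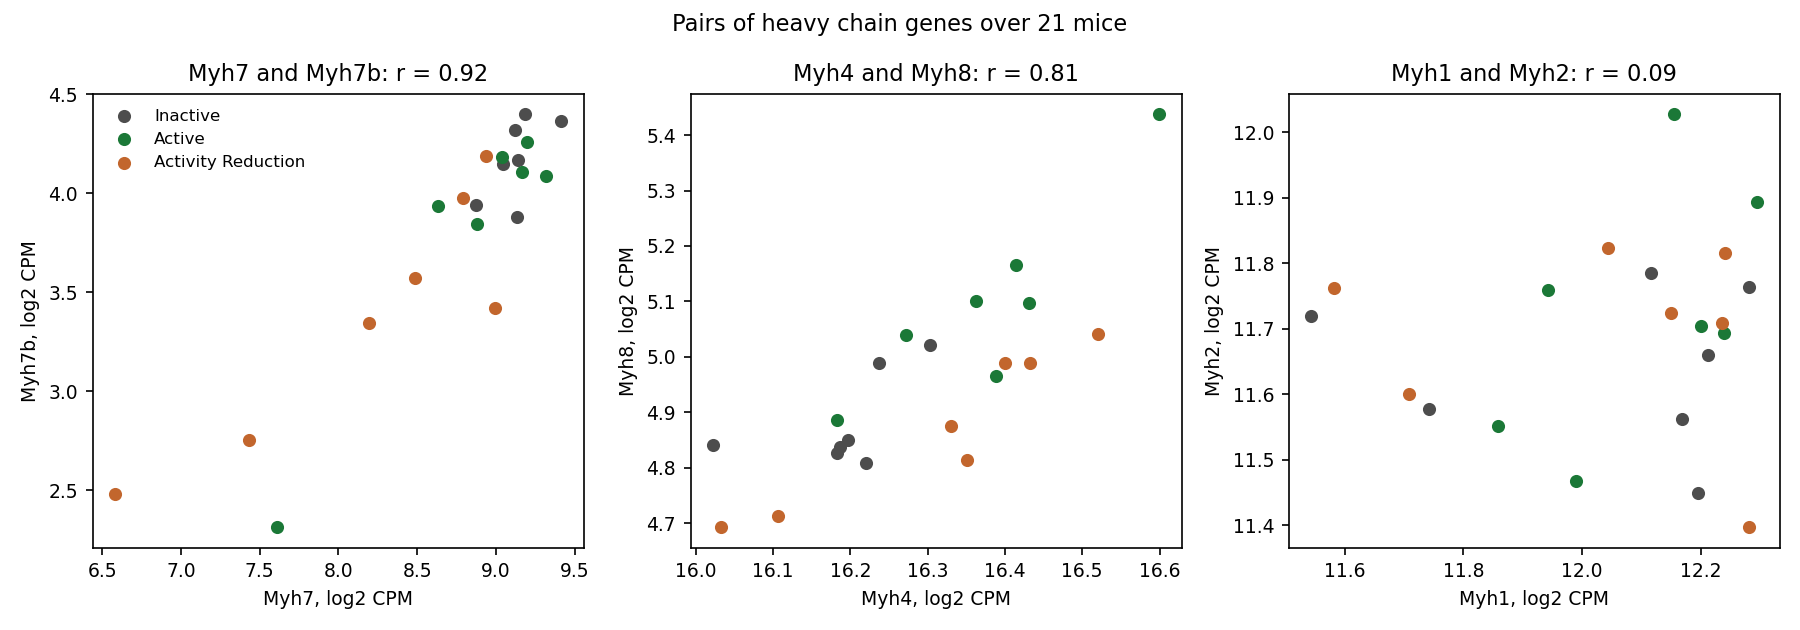
log2 CPM (TMM-scaled, prior count of 2) of 3 pairs of heavy chain genes, Myh7 (x) and Myh7b (y), Myh4 (x) and Myh8 (y), Myh1 (x) and Myh2 (y), with 1 point per mouse and colours for the training groups. The first and second pairs rise together (r = 0.92 and 0.81), and the third does not (r = 0.09).

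The genes most like each heavy chain gene over the 21 libraries were listed as a description, 3 for each. Those of Myh7 were Tpm3 (r = 0.994), Tnnt1, the slow troponin T (0.989), and Tnnc1, the slow troponin C (0.985). Myh7b had Tnnt1 (0.941), Atp2a2 (0.937) and Tnnc1 (0.935), and Myh7 itself ranked 6 of 16128. The nearest to Myh2 were Wfs1, a protein of the endoplasmic reticulum, at 0.907, then Mb, which encodes myoglobin, at 0.781 and Evc, a cilium protein, at 0.755. After Myh8 (0.813), Myh4 had Mybpc2, the fast myosin-binding protein C, at 0.800 and Lrpap1, a receptor chaperone, at 0.787. After Myh4, Myh8 had Itm2b (0.749) and Tcf25 (0.736). Myh1 had only weaker partners, Npl (0.699), Arhgef25 (0.682) and Etfrf1 (0.663), and so had Myh3, with Katnal1 (0.753), Tiam1 (0.740) and Pitpnb (0.739). The highest of these correlations belonged to Myh7 and the lowest first value to Myh1. All of them come from the same 21 libraries, which differ in depth and in liver transcripts, and the part of these in the correlations was not tested.

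Noncoding transcripts of the heavy chain loci were counted from the same table. Myhas, an antisense RNA at chr11:67102082-67128720 that starts within the annotated Myh4 gene, runs back into Myh1 and is known to act on the choice among the fast genes, was at 44.4 ± 3.16 CPM in the Inactive, 38.9 ± 3.34 in the Active and 37.7 ± 7.09 in the Activity Reduction mice (SD, n = 7). Its log2 fold changes were -0.18 in Active against Inactive and -0.19 in Activity Reduction against Inactive, with unadjusted p-values of 0.0613 and 0.0509 and adjusted ones of 0.479 and 0.649 (edgeR). Exons of Myhas lie opposite 10.2% of the annotated exons of Myh1 and 5.78% of those of Myh4. The RNA 2310065F04Rik, read from the minus strand between Myh3 and Myh2, was at 82.1 ± 19.4, 87.0 ± 3.22 and 75.7 ± 8.48 CPM in the same order.

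Mhrt, an antisense RNA of the Myh7 locus, had between 0 and 23 counts in a library and at most 0.273 CPM on average. It was lower in the Activity Reduction than in the Active group at an unadjusted p-value under 0.05 (log2 fold change -1.43, adjusted p-value of 0.285, edgeR). Its exons, 7706 bases in all, lie opposite 2462 bases or 24.6% of the annotated exons of Myh7. Reads within that overlap cannot be told from those of Myh7 without strand. The microRNA genes Mir499, inside Myh7b, and Mir208b, inside Myh7, had at most 1 and 5 counts in any library, too few to compare. Of the 6 noncoding genes 3 were tested.

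Other sarcomeric heavy chain genes, outside the 7, were also counted. Myh13, the next gene of the cluster, which encodes a chain of eye and larynx muscle, stood close to Myh3 in level, at 6.72, 6.89 and 4.94 CPM on average in the Inactive, Active and Activity Reduction mice. Its log2 fold change was -0.40 in Activity Reduction against Inactive and -0.44 against Active, with adjusted p-values of 0.344 and 0.120 (edgeR). Myh6, the cardiac alpha chain beside Myh7, was at 3.71, 3.59 and 2.33 CPM and had log2 fold changes of -0.63 and -0.59, with adjusted p-values of 0.353 and 0.179 (edgeR). Both differences had the sign of that of Myh7. Of the 6 other heavy chain genes tested, nonmuscle and smooth muscle chains included, 0 passed the thresholds in any comparison. Shares computed over these striated muscle chains too gave the same calls as shares over the 7.

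Genes that fold heavy chains or build the thick filament, and regulators of fibre type, were counted from lists of 18 and 50 genes. Of the 18, 2 were lower and 0 higher in Active against Inactive, 2 higher and 2 lower in Activity Reduction against Inactive, and 3 higher and 0 lower in Activity Reduction against Active, all at an unadjusted p-value under 0.05 (edgeR), and 0 passed the thresholds. The shares of all genes tested that were higher and lower were 6.18% and 4.69%, 4.19% and 3.54%, and 6.89% and 6.44% in these comparisons. Unc45b, the chaperone that folds the myosin head, had a log2 fold change of -0.14 in the trained mice (adjusted p-value of 0.344, edgeR). Myom2, an M-band protein of fast fibres, had one of 0.21 and Mybpc1, the slow myosin-binding protein C, one of 0.18 in Activity Reduction against Inactive (adjusted p-values of 0.288 and 0.349, edgeR). Trim54, a titin-associated ligase, had one of 0.18 in Activity Reduction against Active (adjusted p-value of 0.105, edgeR).

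Of the 50 regulators, 1 was higher and 2 lower in Active against Inactive, 6 higher and 2 lower in Activity Reduction against Inactive, and 7 higher and 3 lower in Activity Reduction against Active, at an unadjusted p-value under 0.05, and 0 passed the thresholds (edgeR). Of all genes tested, 6.18% and 4.69%, 4.19% and 3.54%, and 6.89% and 6.44% were higher and lower in the same order. The smallest p-value was that of Esrrg, a nuclear receptor linked to oxidative and slow fibres, which was at 18.8 CPM in the Activity Reduction and 26.6 CPM in the Inactive mice on average. Its log2 fold change was -0.45, with an adjusted p-value of 0.134 (edgeR). Esrra, a related receptor, had a log2 fold change of 0.22 and Six2, a homeobox factor, one of 0.45 in the same comparison, with adjusted p-values of 0.344 and 0.450 (edgeR). Myod1, a myogenic factor that is higher in fast fibres, had a log2 fold change of -0.39 in Active against Inactive and of 0.37 in Activity Reduction against Active, with adjusted p-values of 0.333 and 0.257 (edgeR). Of 18 regeneration and denervation genes, 15 were tested and 0 passed the thresholds (edgeR), with 2 higher and 1 lower in Activity Reduction against Inactive, 0 higher and 2 lower in Active against Inactive, and 3 higher and 1 lower in Activity Reduction against Active at an unadjusted p-value under 0.05. The shares of all genes tested given for the regulators apply to these counts too.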

How the data were processed

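RNA of the medial gastrocnemius of 21 mice was sequenced, 7 mice per group and 1 library per mouse. Per the submitters' processing notes and the study's methods, fastp was used for trimming, STAR for alignment to GRCm39 and featureCounts for counting, by the authors. The deposited values are raw counts for 40853 genes. A further deposited table held the same values and was not used. Tool versions, strand setting and annotation are not given in the sources used here. The 7 members and the gene lists were chosen with earlier results of these data known. Counts were fitted in edgeR 4.0.16 (R 4.3.3; quasi-likelihood, TMM, filterByExpr) over 21 libraries, with Benjamini-Hochberg adjustment over 16129 genes. A call needed an adjusted p-value under 0.05 and a log2 fold change over 0.25 in either direction. DESeq2 1.42.0 was an alternative. Shares were tested by two-sided exact permutation (SciPy 1.17.1, 3432 divisions). All 7 genes were named, with the 3 genes most correlated with each and the 3 genes of smallest p per list. Lengths, positions and overlaps came from GENCODE M39, and promoters from RefSeq (GRCm38.p6) matched exactly to GRCm39. The pipeline was tested on simulated data. Alternatives changed scaling, filter, tool, samples, covariate, block and length. Depths were 38482455 to 59785132 counts.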

Additional observations from a re-analysis of the deposited data

Results flagged for a closer look

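Of 42 sets of 7 values tested for a mouse far from the rest of its group (CPM and share of 7 genes in 3 groups), 3 had one, where chance flags about 1 in 20, and all 3 were the same mouse, replicate 3 of the Active group. Its Myh7b level was 5.03 CPM, where the other Active mice lay between 14.8 and 19.3 CPM. Its share of Myh7 was 0.205%, where the others lay between 0.450% and 0.622%, and its share of Myh7b was 0.00517%, where the others lay between 0.0159% and 0.0202%. The cause was not tested.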

How the results depend on the processing

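No heavy chain gene passed the thresholds under any of the 9 alternatives or with any mouse left out, and no member's difference changed sign where either value had an unadjusted p under 0.05. Counts over all genes moved with the tool: in Active against Inactive 62 genes passed with DESeq2 on the 3 groups, 77 with DESeq2 and 3 with edgeR on the 2 groups compared, and 0 in edgeR on all libraries. In Activity Reduction against Inactive, where 2 passed, there were 21, 43 and 0 in the same fits, 0 with RLE scaling, 5 without TMM, 1 with the liver covariate, 4 with the replicate block and 0 on the 13 libraries with fewer liver transcripts. In Activity Reduction against Active, where 0 passed, there were 115 and 139 with DESeq2 and 1 with RLE scaling. At an unadjusted p under 0.05, the liver covariate gave 1 slow fibre gene higher in place of 0 and 2 fast fibre genes higher in place of 1 in Active against Inactive, and 9 slow fibre genes lower in place of 2 in Activity Reduction against Active. With 1 mouse left out the counts of all genes past the thresholds ranged from 0 to 1, from 0 to 6 and from 0 to 9. Leaving out mice moved the difference in share of Myh7 from -0.186 to -0.113, from -0.342 to -0.270 and from -0.199 to -0.106 percentage points in the same order, and of Myh4 from 0.490 to 1.06, from 0.444 to 1.06 and from -0.356 to 0.304. At an unadjusted p under 0.05, the call of Myh3 in Active against Inactive was lost for 11 of 21 mice left out. The labels do not say that replicate numbers pair mice, and the main tests used no pairing. Same-numbered mice of the 3 comparisons had correlated deviations over 0.1 in 2, 3 and 2 of 7 pairs. The highest was 0.47, in Activity Reduction against Inactive. In the same order, 1, 2 and 1 of 7 libraries were most like their own number. These correlations cannot show whether mice were paired. With the replicate block the share of Myh3 in Activity Reduction against Active gained an exact p of 0.0156, with the same difference of -0.00190 percentage points. Within the 8 libraries with more liver transcripts there was 1 Inactive mouse, so no test was made there. Exon-union lengths, the fit on the 13 libraries and the covariate for gene lists were added after the data were seen. Low counts limited mainly Mhrt and the microRNA genes, and the part of depth in this was not tested.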
